A study of Mus musculus with 8 samples.

Results

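The mitochondrial genome of the mouse carries 37 genes, and all 37 have a row in the deposited counts of 43432 genes from lung myofibroblasts. They were found by a symbol that starts with mt-, which each mouse Ensembl identifier was matched to, and comprise 13 protein-coding, 2 rRNA and 22 tRNA genes. Mitochondrial DNA is a small circle read from both strands as long transcripts. The tRNAs that lie between the other genes are cut out of these transcripts, which frees the mRNAs and rRNAs. The proteins are subunits of respiratory complexes I, III and IV and of the ATP synthase, complex V, while all other subunits, and every protein that copies and reads mitochondrial DNA, come from nuclear genes.

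The cells were lung myofibroblasts, contractile mesenchymal cells that lay down elastin as alveoli form, from mice on a C57BL/6 background at postnatal day 7. There were 4 libraries whose genotype label reads Fra-2 transgenic with constitutive Fra-2 expression, Fra-2 1 to Fra-2 4, although their source name also holds the word control, and 4 libraries labelled wild type, control 1 to control 4. The labels used here give neither the promoter of the transgene nor the number of animals behind the libraries, so how much of the spread behind each p-value is technical is not known. mRNA was isolated with beads from 50 ng of total RNA and amplified, and libraries held 29926239 to 41335957 counts. Fosl2, which encodes Fra-2, averaged 132 ± 25.7 CPM (counts scaled by edgeR's TMM method to a common library size) in Fra-2 transgenic and 120 ± 14.96 CPM in control libraries (SD, n = 4 each). The difference did not pass (log2 fold change 0.14, edgeR adjusted p = 0.888), so Fosl2 counts do not separate the groups here, and Fra-2 transgenic is used below as the name on the label. Each group held 2 female and 2 male libraries by Xist and Y-linked genes. The myofibroblast markers were abundant in both groups, with Myh11, smooth muscle myosin, at 4385 and 4029 CPM in Fra-2 transgenic and control libraries and Acta2, smooth muscle actin, at 3411 and 3285 CPM. Of the 10 myofibroblast markers 2 passed in edgeR (adjusted p under 0.05), where 1.02% of all genes tested did. Stc1 was higher, at 693 ± 101 CPM in Fra-2 transgenic and 470.3 ± 43.3 CPM in control libraries (edgeR adjusted p = 0.0302), and Enpp2 was lower, at 376 ± 74.9 and 571 ± 37.9 CPM (edgeR adjusted p = 0.0447). Among markers of other cells, the summed level was 114 to 221 CPM in Fra-2 transgenic and 56.4 to 136 CPM in control libraries for 8 epithelial genes, 49.1 to 67.9 and 36.8 to 59.6 CPM for 6 endothelial genes, and 88.8 to 118 and 76.7 to 110 CPM for 7 immune genes. For 5 red blood cell genes it was 18.9 to 76.8 CPM in Fra-2 transgenic and 17.2 to 141 CPM in control libraries. The pericyte and mesothelial markers were the list of other cells whose sums did not overlap, at 1023 to 1333 CPM in Fra-2 transgenic and 1427 to 1717 CPM in control libraries. Most of that sum was Rgs5, a pericyte marker, at 1025 ± 141 CPM in Fra-2 transgenic and 1392 ± 95.7 CPM in control libraries (edgeR adjusted p = 0.092). The list as a whole did not follow Rgs5. Of its 5 tested genes 3 had a positive and 2 a negative log2 fold change, with a median of 0.17. Genes of cell stress at isolation summed to 6429 to 7329 CPM in Fra-2 transgenic and 5230 to 7840 CPM in control libraries. No gene of these lists other than Stc1 and Enpp2 passed, and the part of other cells in the mitochondrial values was not tested.

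The 37 genes did not share one level, and a contiguous run of them held few or no counts. In all 8 libraries, 5 of the 13 protein-coding genes were at 0. These were mt-Co2 and mt-Co3, subunits of cytochrome c oxidase (complex IV), mt-Atp6 and mt-Atp8, subunits of ATP synthase, and mt-Nd4l, a subunit of complex I. mt-Nd3, another complex I subunit, had 4, 6, 15 and 10 counts in Fra-2 1 to 4 and 12, 11, 10 and 19 in control 1 to 4. The other 7 protein-coding genes held at least 31614 counts in each library. The low genes are neighbours on the mitochondrial genome, from mt-Co2 to mt-Nd4l. The tRNA genes mt-Tk and mt-Tg among them, and mt-Ts1 and mt-Td just before mt-Co2, were at 0 as well.

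**Figure D1:**
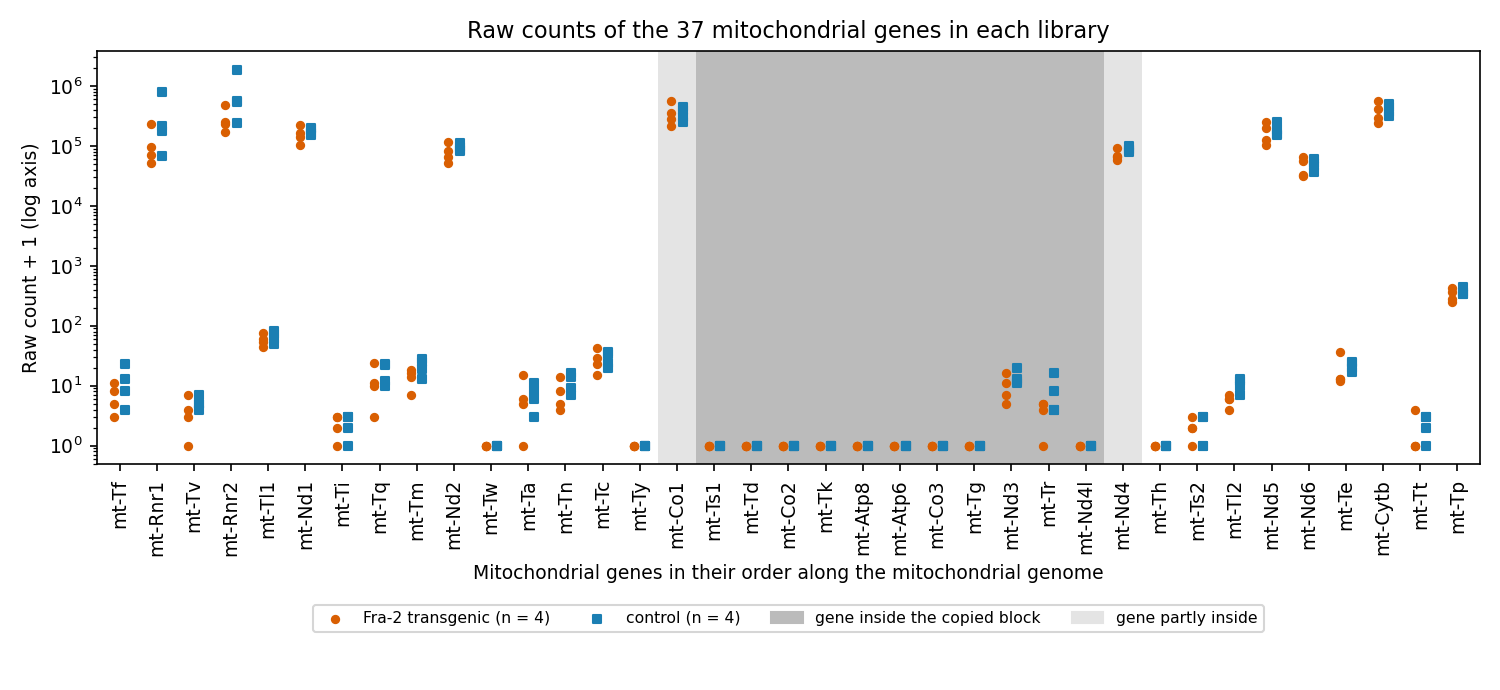
Raw count plus 1 on a log axis for the 37 mitochondrial genes in genome order, with 1 point for each of the 4 Fra-2 transgenic and 4 control libraries. Dark grey marks the 11 genes inside the stretch copied on chromosome 1, where no gene exceeded 19 counts in any library, and light grey the 2 genes partly inside it.

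The run of low genes coincided with a stretch of nuclear DNA that copies the mitochondrial genome. In GENCODE M21 (mouse build GRCm38), 7 unprocessed pseudogenes lie in a row on the minus strand of chromosome 1, from 24611535 to 24616197. Aligned to the mitochondrial transcripts, they match positions 6390 to 11042 of the mitochondrial genome in order. 5 of the 7 alignments had no difference. These were Gm28661 with 681 of the 684 bases of mt-Co2, Gm10925 with 678 of the 681 bases of mt-Atp6, Gm28437 with 783 of the 784 bases of mt-Co3, Gm10222 with 294 of the 297 bases of mt-Nd4l, and Gm28439 with 876 of the 1378 bases of mt-Nd4. The alignments of mt-Nd3 to Gm28438 (345 bases) and of the end of mt-Co1 to Gm29216 (483 bases) had 1 mismatch each. Of the 11 mitochondrial genes that lie wholly inside the matched stretch, 9 were at 0 in all 8 libraries. The exceptions were mt-Nd3 and mt-Tr, and of the 26 genes not wholly inside it, only the tRNA genes mt-Tw, mt-Ty and mt-Th were at 0 throughout.

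The start of mt-Co2 is shown beside its copy as an example of a gene at 0, with no difference in the first 60 bases. The start of mt-Nd3 is shown because its only mismatch to the copy, in capitals, lies at the third base of the gene (T3C, with positions counted from 1 at the first base of the gene and the gene's base given first). Sequences are read 5′ to 3′ from the GENCODE M21 transcripts.
mt-Co2 (chrM:7013-7072, plus strand): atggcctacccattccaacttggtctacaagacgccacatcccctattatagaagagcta
Gm28661 (chr1:24615506-24615565, minus strand): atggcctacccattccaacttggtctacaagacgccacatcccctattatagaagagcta
mt-Nd3 (chrM:9459-9518, plus strand): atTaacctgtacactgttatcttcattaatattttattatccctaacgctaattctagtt
Gm28438 (chr1:24613060-24613119, minus strand): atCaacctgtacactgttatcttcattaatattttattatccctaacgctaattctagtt

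Between mt-Nd3 and mt-Nd4l the spacing of the chromosome 1 copy is 1 base longer than that of the mitochondrial genome. This interval holds mt-Tr, the arginine tRNA gene, which had 0 to 4 counts in the Fra-2 transgenic and 3 to 15 in the control libraries. Its sequence is shown for its run of 8 A, in capitals, the joint longest run of A in the 37 genes.
mt-Tr (chrM:9808-9875, plus strand): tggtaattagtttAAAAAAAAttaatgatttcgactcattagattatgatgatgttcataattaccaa

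Both mt-Co1 and mt-Cytb had high counts, and each has a less exact nuclear copy over nearly its whole length. mt-Co1, the catalytic subunit of complex IV, aligned over all its 1545 bases to Gm13340 on chromosome 2 with 37 mismatches (97.6% identity). mt-Cytb, the only mitochondrially encoded subunit of complex III, aligned over 1142 bases to Gm11410 on chromosome 4 at 92.91% identity. The first bases are shown with the differences in capitals, C54A and A60G for mt-Co1 and G14A, C24T and C61T for mt-Cytb.
mt-Co1 (chrM:5328-5387, plus strand): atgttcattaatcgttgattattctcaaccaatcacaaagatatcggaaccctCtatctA
Gm13340 (chr2:22589588-22589647, minus strand): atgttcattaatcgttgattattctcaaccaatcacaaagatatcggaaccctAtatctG
mt-Cytb (chrM:14146-14205, plus strand): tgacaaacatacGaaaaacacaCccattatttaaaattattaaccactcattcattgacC
Gm11410 (chr4:80003990-80004049, plus strand): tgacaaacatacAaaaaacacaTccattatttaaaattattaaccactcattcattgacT

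Shared sequence was also counted in windows of 50 bases, as the share of a gene's windows that occur unchanged, on either strand, in an annotated nuclear transcript. The share was 97.99% for mt-Nd3, 98.79% for mt-Nd4l, 99.53% for mt-Atp6, 99.86% for mt-Co3 and 100% for mt-Co2, all of them at 0 or below 20 counts. It was 62.23% for mt-Nd4 and 51.14% for mt-Co1, 8.19% for mt-Nd2, 7.606% for mt-Nd5, 1.044% for mt-Rnr2, and 0% for mt-Cytb, mt-Nd1, mt-Nd6 and mt-Rnr1. mt-Atp8 and the tRNA genes inside the stretch have no annotated transcript in the copy, so this count gives 0% for mt-Atp8 although it lies between mt-Co2 and mt-Atp6. The 7 chromosome 1 pseudogenes themselves had 219 counts in all 8 libraries together. How reads that match more than one place were counted is not given in the sources used here, and its part in the zeros was not tested. No fold change is given for a gene at 0, and the sums below for protein-coding genes leave out the genes at 0.

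**Figure D2:**
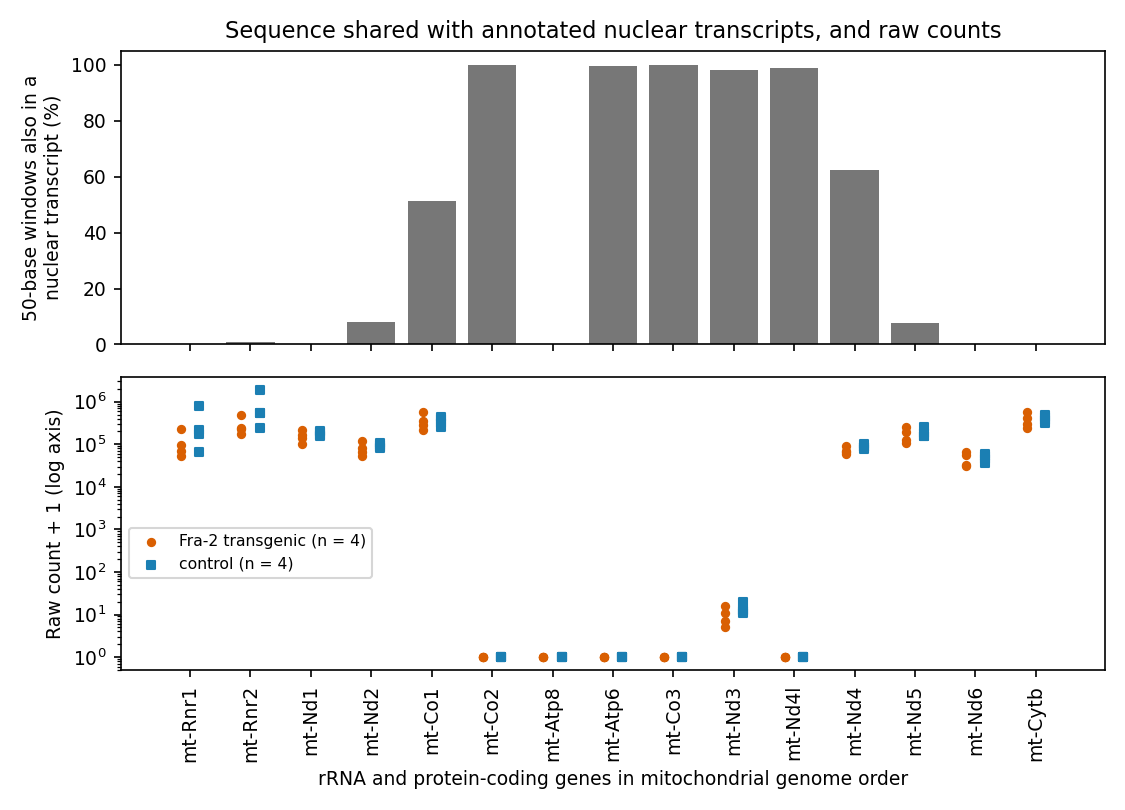
Upper panel, percent of 50-base windows of each rRNA and protein-coding gene that also occur in an annotated nuclear transcript; lower panel, raw count plus 1 on a log axis in the 4 Fra-2 transgenic and 4 control libraries. Genes with a share of at least 97.99% had no more than 19 counts, and mt-Atp8, whose copy has no annotated transcript, was at 0.

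The share of counts on mitochondrial protein-coding genes, nearly all of it from the 7 well-counted mRNAs, overlapped between the groups. Protein-coding mitochondrial genes held 2.90%, 2.70%, 4.09% and 4.85% of all counts in Fra-2 1 to 4 and 2.93%, 3.05%, 5.12% and 4.31% in control 1 to 4. The mean was 3.63 ± 1.02% in the Fra-2 transgenic and 3.85 ± 1.05% in the control libraries (SD, n = 4 each). The difference of -0.218 percentage points turned positive without Fra-2 1 (0.0255), Fra-2 2 (0.0942) or control 3 (0.204), and was -0.623 without Fra-2 4. In both groups the libraries numbered 3 and 4 were the higher ones. In such bulk samples fewer cells of a type and less RNA per cell cannot be told apart.

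Per kilobase of gene, levels of the 7 mRNAs ranged from 1360 to 13726 CPM per kb over genes and libraries. The order by mean level was mt-Cytb (9638 ± 3076 CPM per kb in Fra-2 transgenic and 10115 ± 3066 in control libraries), mt-Co1 (6674 ± 2354 and 6475 ± 2181), and mt-Nd1, a complex I subunit (4802 ± 1238 and 5284 ± 1256). mt-Nd5, mt-Nd6, mt-Nd2 and mt-Nd4, all of complex I, followed with means of 1519 to 2748 CPM per kb in Fra-2 transgenic and 1800 to 2950 CPM per kb in control libraries. Each of the first 3 stood above the next gene in all 8 libraries, and so did mt-Nd2 above mt-Nd4. mt-Nd5 stood above mt-Nd6 in 5 of 8 libraries and mt-Nd6 above mt-Nd2 in 6 of 8, so the order of these neighbours was not fixed.

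For 2 of these genes the level per kb depends on whether bases inside the copied stretch gave reads, which was not tested. Only 502 of the 1378 bases of mt-Nd4 and 1062 of the 1545 bases of mt-Co1 lie outside the copied stretch. If only those bases gave reads, mt-Nd4 measured 4170 ± 521 CPM per kb of them in the Fra-2 transgenic and 4942 ± 465 in the control libraries. It then ranked above mt-Nd5 in all 8 libraries, in place of last. On the same basis mt-Co1 measured 9709 ± 3425 CPM per kb in the Fra-2 transgenic and 9419 ± 3173 in the control libraries. mt-Cytb then stood above mt-Co1 in 6 of 8 libraries in place of 8. Bases shared with other nuclear copies, such as Gm13340 for mt-Co1, were not taken off for any gene.

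mt-Nd6 is the only protein-coding gene written on the light-strand transcript, and its mRNA is known to lack a stable poly(A) tail in human cells. It measured 926, 1007, 1793 and 1705 CPM in Fra-2 1 to 4 and 836, 1300, 1909 and 1560 CPM in control 1 to 4. Its level per kb thus lay among those of the complex I mRNAs from the other strand. No step of the library protocol marks the strand, and transcripts of the opposite strand at this locus cannot be told apart from mt-Nd6.

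Over all genes, 16 of the 37 members passed the filter on low counts and were tested, namely 8 protein-coding, 2 rRNA and 6 tRNA genes. None of the 16 passed the threshold in edgeR (adjusted p under 0.05), where 1.02% of the 15422 genes tested did (0.72% higher and 0.298% lower in Fra-2 transgenic libraries). 1 of the 16, mt-Nd4, had an unadjusted p under 0.05, against 8.71% of all genes tested, and DESeq2 and limma-voom called 0 as well. DESeq2 gave no adjusted p for mt-Tq, mt-Tm, mt-Nd3 and mt-Te. The groups of libraries overlapped for all 16, while they did not overlap for 5.76% of all genes tested (3.35% higher and 2.42% lower in Fra-2 transgenic libraries). The log2 fold change, Fra-2 transgenic over control, was negative for 15 of the 16 and positive for 1, beside 52.2% negative among all genes tested. Its median was -0.17 beside -0.01 for all genes tested. The members come from shared long transcripts, so their signs are not independent, and 7 members changed direction under at least 1 alternative.

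**Figure D3:**
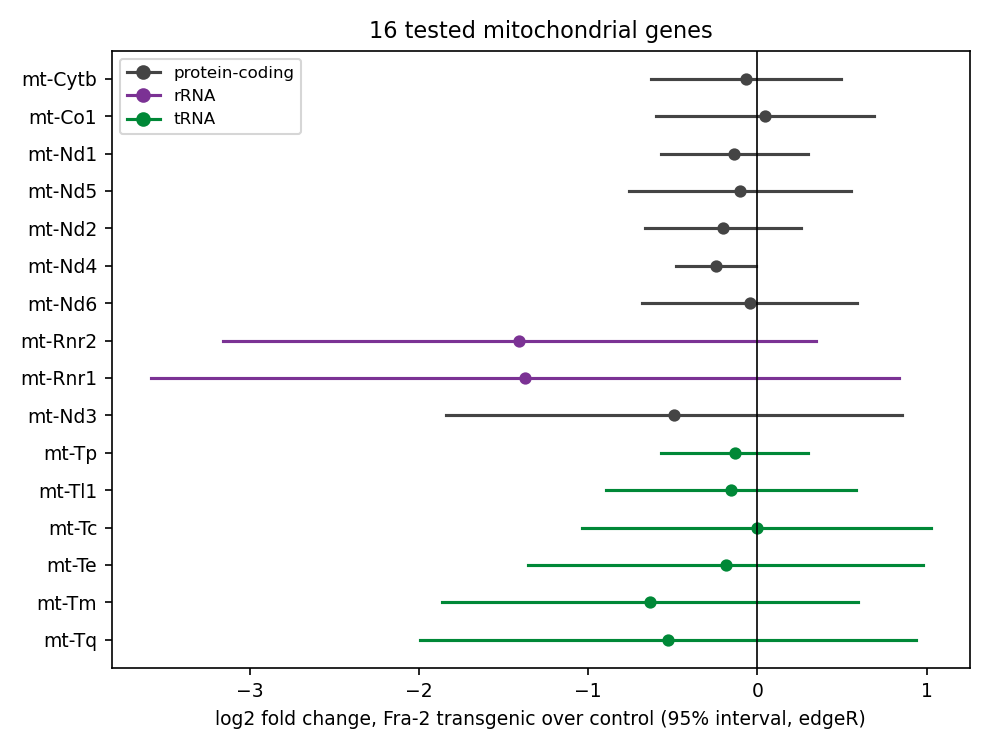
Log2 fold change (Fra-2 transgenic over control) with its 95% interval from edgeR for the 16 tested mitochondrial genes, coloured by class. The interval of mt-Nd4 ends just below 0 and all others include 0, and those of mt-Rnr1 and mt-Rnr2 are the widest among the genes with many counts.

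Among the mRNAs, mt-Cytb measured 8490, 7713, 12799 and 15101 CPM in Fra-2 1 to 4 and 8339, 9003, 15702 and 13243 CPM in control 1 to 4. mt-Co1 measured 8214, 6824, 11162 and 15044 CPM in Fra-2 1 to 4 and 7089, 7265, 13853 and 11806 CPM in control 1 to 4. Libraries numbered 1 and 2 were low and those numbered 3 and 4 high in each group, and the groups overlapped throughout. mt-Co1 was the only tested member with a positive log2 fold change, 0.04 (SE 0.287, edgeR adjusted p = 0.989). That of mt-Cytb was -0.07 (SE 0.253, edgeR adjusted p = 0.98). The 95% intervals put the ratio of Fra-2 transgenic to control between 0.659 and 1.61 for mt-Co1 and between 0.646 and 1.41 for mt-Cytb.

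The complex I mRNAs showed the same high and low libraries. mt-Nd1 measured 3997, 3262, 5243 and 5882 CPM in Fra-2 1 to 4 and 3733, 4343, 6085 and 6066 CPM in control 1 to 4. mt-Nd2 measured 1899, 1670, 2634 and 3125 CPM in Fra-2 1 to 4 and 1974, 2380, 3465 and 2921 CPM in control 1 to 4. mt-Nd5 measured 3672, 3345, 6274 and 6756 CPM in Fra-2 1 to 4 and 3524, 4562, 7946 and 5495 CPM in control 1 to 4. All 3 overlapped between the groups, with log2 fold changes of -0.14 for mt-Nd1, -0.20 for mt-Nd2, -0.10 for mt-Nd5 and -0.05 for mt-Nd6 (edgeR adjusted p of 0.936, 0.893, 0.97 and 0.988). Over the 7 mRNAs control 3 was the highest library for 6 and Fra-2 2 the lowest for 6.

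mt-Nd4 was the least variable of the 7 mRNAs between libraries. It measured 1906, 1875, 2157 and 2437 CPM in Fra-2 1 to 4 and 2320, 2255, 2750 and 2599 CPM in control 1 to 4. Fra-2 4 lay above control 1 and control 2, while the other 3 Fra-2 transgenic libraries lay below all 4 controls. Its highest library stood at 1.47 times the lowest, beside 1.87 to 2.38 times for the other 6 mRNAs and a median of 1.39 times over the 1984 genes that averaged 100 CPM or more. The log2 fold change was -0.24 with an SE of 0.11 (unadjusted p = 0.0428, edgeR adjusted p = 0.544), which did not pass.

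The makeup of the mRNA pool varied less than its size. mt-Cytb took 29.17% to 30.43% of the counts on the 7 mRNAs in Fra-2 transgenic and 28.94% to 30.37% in control libraries. mt-Co1 took 26.54% to 30.06% in Fra-2 transgenic and 23.35% to 27.02% in control libraries. mt-Nd2 took 6.24% to 6.53% in Fra-2 transgenic and 6.69% to 7.65% in control libraries, a gap noticed after the values were seen and not tested. The share of mt-Nd4 ranged from 4.87% to 7.30% in Fra-2 transgenic and from 5.32% to 8.34% in control libraries, and was lowest in the libraries numbered 3 and 4 of each group.

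**Figure D4:**
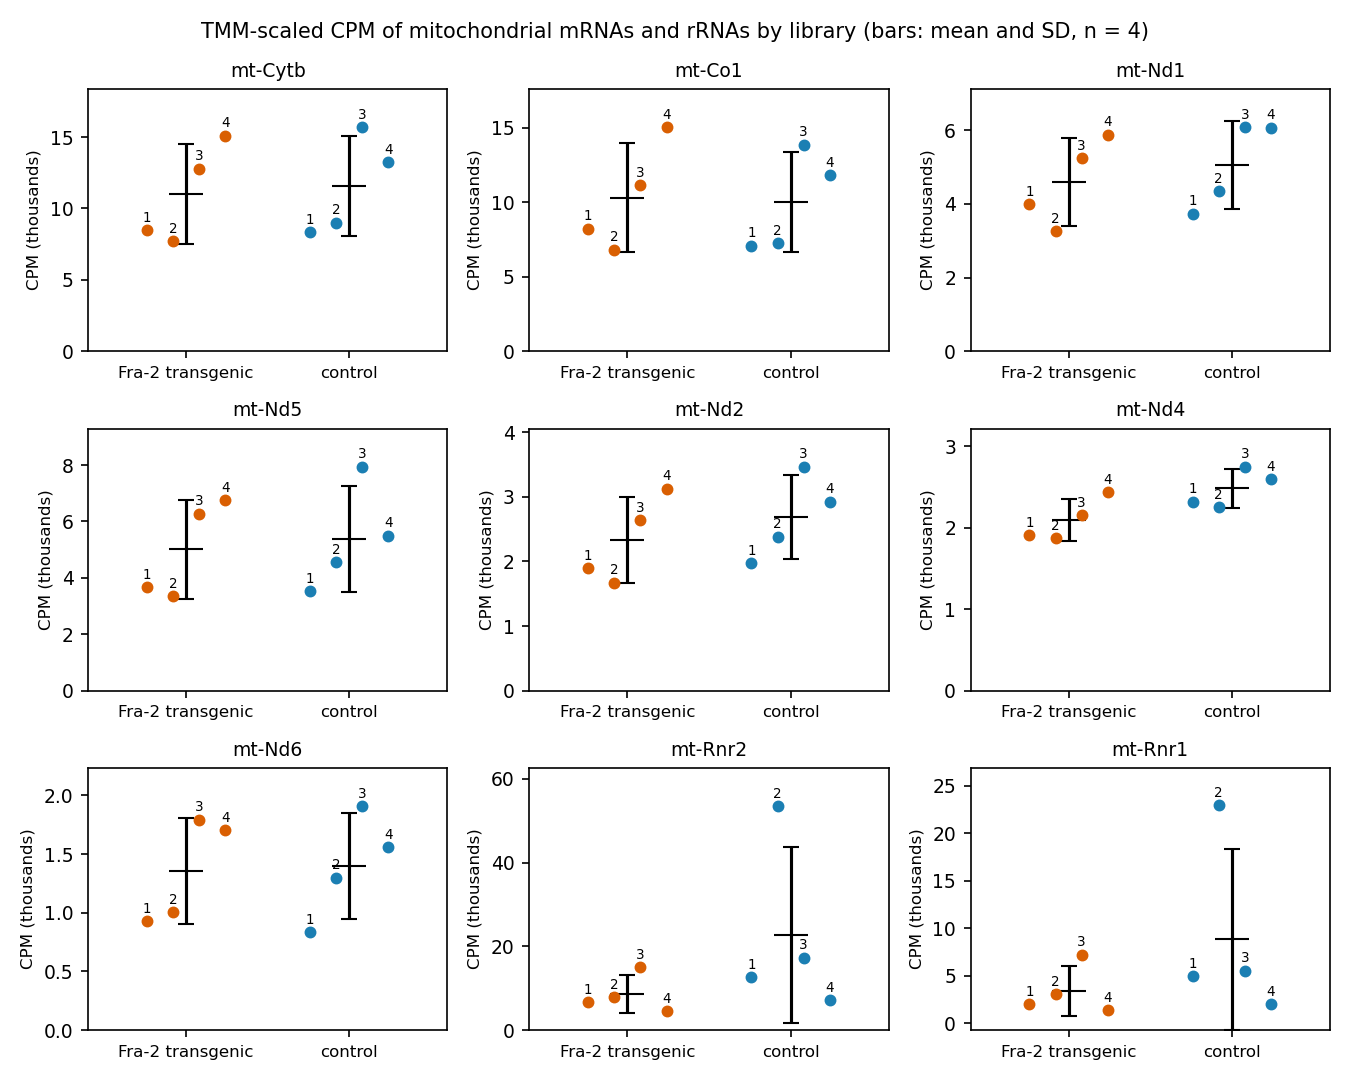
TMM-scaled CPM (axis in kilo-CPM) of the 7 well-counted mitochondrial mRNAs and the 2 rRNAs, with 1 numbered point per library and the mean with its SD for 4 Fra-2 transgenic and 4 control libraries. The mRNAs are low in libraries 1 and 2 of both groups, and the rRNAs are highest in control 2, at 53475 CPM for mt-Rnr2.

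The 2 mitochondrial rRNAs, the 12S (mt-Rnr1) and 16S (mt-Rnr2) RNAs of the mitochondrial ribosome, differed far more between libraries than the mRNAs. mt-Rnr2 measured 6698, 7868, 15081 and 4576 CPM in Fra-2 1 to 4 and 12676, 53475, 17320 and 7217 CPM in control 1 to 4. mt-Rnr1 measured 1994, 3075, 7209 and 1389 CPM in Fra-2 1 to 4 and 4936, 22964, 5517 and 2017 CPM in control 1 to 4. Control 2 was the highest and Fra-2 4 the lowest for both, 11.7 times apart for mt-Rnr2 and 16.5 times for mt-Rnr1. By the SD of log2 CPM over the 8 libraries, mt-Rnr1 ranked 2 and mt-Rnr2 ranked 3 among the same 1984 genes. The highest libraries for both, control 2, control 3 and Fra-2 3, were female, but Fra-2 1, also female, lay below the male control 1. In an edgeR fit of sex added after the data were seen, the log2 fold change, male over female, was -1.54 (SE 0.697) for mt-Rnr1 and -1.32 (SE 0.487) for mt-Rnr2. Neither passed.

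The means of both rRNAs were lower in the Fra-2 transgenic libraries, but the difference did not exceed the spread. mt-Rnr2 averaged 8556 ± 4558 CPM in Fra-2 transgenic and 22672 ± 20946 CPM in control libraries (SD, n = 4 each), and its log2 fold change was -1.41 with an SE of 0.724 (edgeR adjusted p = 0.695). mt-Rnr1 averaged 3417 ± 2623 CPM in Fra-2 transgenic and 8858 ± 9527 CPM in control libraries, and its log2 fold change was -1.37 with an SE of 0.911 (edgeR adjusted p = 0.804). Without control 2 the log2 fold changes in edgeR were -0.53 for mt-Rnr2 (adjusted p = 0.931) and -0.28 for mt-Rnr1 (adjusted p = 0.983).

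The rRNA share of all counts was 0.867%, 1.15%, 2.17% and 0.578% in Fra-2 1 to 4 and 1.86%, 7.496%, 2.26% and 0.91% in control 1 to 4. For each read on a mitochondrial protein-coding gene there were 0.299, 0.426, 0.53 and 0.119 rRNA reads in Fra-2 1 to 4 and 0.633, 2.46, 0.442 and 0.211 in control 1 to 4. The order of the libraries differed between mRNA and rRNA. Fra-2 4 had the highest mRNA share of its group and the lowest rRNA share of all 8 libraries, while Fra-2 3 and control 3 were high in both.

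Within a library the 2 rRNAs kept closer to each other. The ratio of mt-Rnr2 to mt-Rnr1 counts was 3.36, 2.56, 2.09 and 3.29 in Fra-2 1 to 4 and 2.57, 2.33, 3.14 and 3.58 in control 1 to 4. On the log2 scale the means were 1.47 ± 0.325 in Fra-2 transgenic and 1.52 ± 0.28 in control libraries (SD, n = 4 each), and a two-sided exact permutation test returned p = 0.8 (with 4 libraries a group it cannot go below 0.0286). The same ratios planned for mt-Atp6 to mt-Atp8 and for mt-Nd4 to mt-Nd4l could not be formed, since mt-Atp6, mt-Atp8 and mt-Nd4l are at 0.

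Other RNAs that lack a usual poly(A) tail, chosen after their values were seen, are given beside the rRNAs. Malat1, a nuclear long noncoding RNA, measured 1829, 2633, 2129 and 1546 CPM in Fra-2 1 to 4 and 2736, 6515, 3026 and 1864 CPM in control 1 to 4. Rn7sk, a small nuclear RNA made by RNA polymerase III, had 6, 53, 59 and 29 counts in Fra-2 1 to 4 and 76, 197, 85 and 36 counts in control 1 to 4. Both were highest in control 2, as the mitochondrial rRNAs were. Among the Fra-2 transgenic libraries the rRNAs and Rn7sk were highest in Fra-2 3, but Malat1 in Fra-2 2. A peak in control 2 was not particular to these RNAs. Xist measured 900 CPM there, beside 471 to 540 CPM in the other female libraries. Polg2, a nuclear gene described below, measured 71.9 CPM there, beside 15.4 to 36.4 CPM in the other libraries. The part of poly(A) selection in the rRNA values was not tested. The longest run of A was 7 bases in mt-Rnr2 and 5 in mt-Rnr1, beside 2 to 8 over the 37 genes, and the stretches that hold these runs are shown with the run in capitals.
mt-Rnr1 (chrM:690-729, plus strand): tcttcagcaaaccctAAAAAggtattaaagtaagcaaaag
mt-Rnr2 (chrM:1473-1512, plus strand): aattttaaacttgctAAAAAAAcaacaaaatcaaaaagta

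tRNA genes held few reads, 341 to 661 per library in the Fra-2 transgenic and 513 to 675 in the control group. Of the 22 genes, 7 were at 0 in all 8 libraries, 6 were at 0 in some and 9 had reads in every library. The proline tRNA gene mt-Tp, on the light strand next to the control region, held 66.2% of all tRNA reads, with 283, 248, 365 and 417 counts in Fra-2 1 to 4 and 337, 343, 436 and 371 in control 1 to 4. The leucine tRNA gene mt-Tl1, which lies between mt-Rnr2 and mt-Nd1, followed with 52, 43, 59 and 76 counts in Fra-2 1 to 4 and 49, 58, 81 and 73 in control 1 to 4. The groups overlapped for both. Per kb, mt-Tp averaged 144 CPM in Fra-2 transgenic and 158 CPM in control libraries, and mt-Tl1 averaged 22.5 and 25.1 CPM. Their sequences are shown as those of the 2 tRNA genes with the most reads.
mt-Tp (chrM:15356-15422, minus strand): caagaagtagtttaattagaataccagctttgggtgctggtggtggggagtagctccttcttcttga
mt-Tl1 (chrM:2676-2750, plus strand): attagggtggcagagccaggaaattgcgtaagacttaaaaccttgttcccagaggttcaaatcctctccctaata

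The 6 tRNA genes tested were mt-Tp, mt-Tl1, mt-Tc, mt-Te, mt-Tm and mt-Tq. Their log2 fold changes ran from -0.63 for mt-Tm, which initiates and extends with methionine, to -0.01 for mt-Tc, the cysteine tRNA, with edgeR adjusted p of 0.87 and 0.998. The value was -0.13 for mt-Tp (SE 0.202, edgeR adjusted p = 0.937). mt-Tl1 had 43 to 81 reads per library and the 4 below it fewer.

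Nuclear genes of mitochondrial function were read from the same fit, in 12 lists of which 260 genes were tested. None of the 260 passed in edgeR (adjusted p under 0.05), where 1.02% of all genes tested did, and DESeq2 called 0 too. 9 had an unadjusted p under 0.05, which is 3.46%, against 8.71% of all genes tested. Of the 260, 194 (74.6%) had a negative log2 fold change, beside 52.2% of all genes tested. The median of the lists together was -0.11, beside -0.01 for all genes tested.

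In the respiratory chain, the nuclear subunits of complex I had a median log2 fold change of -0.17 over 36 genes. The medians were -0.07 over 4 genes of complex II, -0.14 over 9 of complex III, -0.13 over 14 of complex IV with cytochrome c, and -0.18 over 15 of complex V. The most abundant member was Sdha for complex II (189 ± 26.6 CPM in Fra-2 transgenic and 196 ± 23.3 CPM in control libraries). It was Uqcrc2 for complex III (60.9 ± 6.86 and 59.0 ± 9.57 CPM), Ndufa4 for complex IV (79.4 ± 13.9 and 77.0 ± 11.7 CPM) and Atp5b, the catalytic beta subunit, for complex V (536 ± 68.3 and 596 ± 52.4 CPM). None of these 4 passed (edgeR adjusted p of 0.81 to 0.975). Atp5g1, which encodes the ring subunit c and was picked after its values were seen, had the smallest adjusted p of all 260 genes, 0.207, at 12.8 ± 1.47 CPM in Fra-2 transgenic and 17.9 ± 2.29 CPM in control libraries.

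The high and low libraries of the mitochondrial mRNAs can be set beside the nuclear subunits. Summed over complex I subunits, the level was 709, 656, 808 and 799 CPM in Fra-2 1 to 4 and 711, 719, 748 and 924 CPM in control 1 to 4. Over complex III subunits it was 201, 189, 232 and 220 CPM in Fra-2 1 to 4 and 188, 189, 208 and 269 CPM in control 1 to 4. Over complex IV subunits and cytochrome c it was 225, 225, 286 and 308 CPM in Fra-2 1 to 4 and 263, 226, 277 and 344 CPM in control 1 to 4. In each of these sums the libraries numbered 3 and 4 were above those numbered 1 and 2 of their group, as for the mitochondrial mRNAs, with a smaller gap. Complexes II and V did not follow this, with control 1 above control 3 in both. The sum was 318, 288, 335 and 384 CPM in Fra-2 1 to 4 and 345, 287, 328 and 393 CPM in control 1 to 4 for complex II. For complex V it was 1383, 1147, 1467 and 1541 CPM in Fra-2 1 to 4 and 1514, 1440, 1472 and 1788 CPM in control 1 to 4. The labels give these numbers no meaning, and what sets these libraries apart was not tested.

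**Figure D5:**
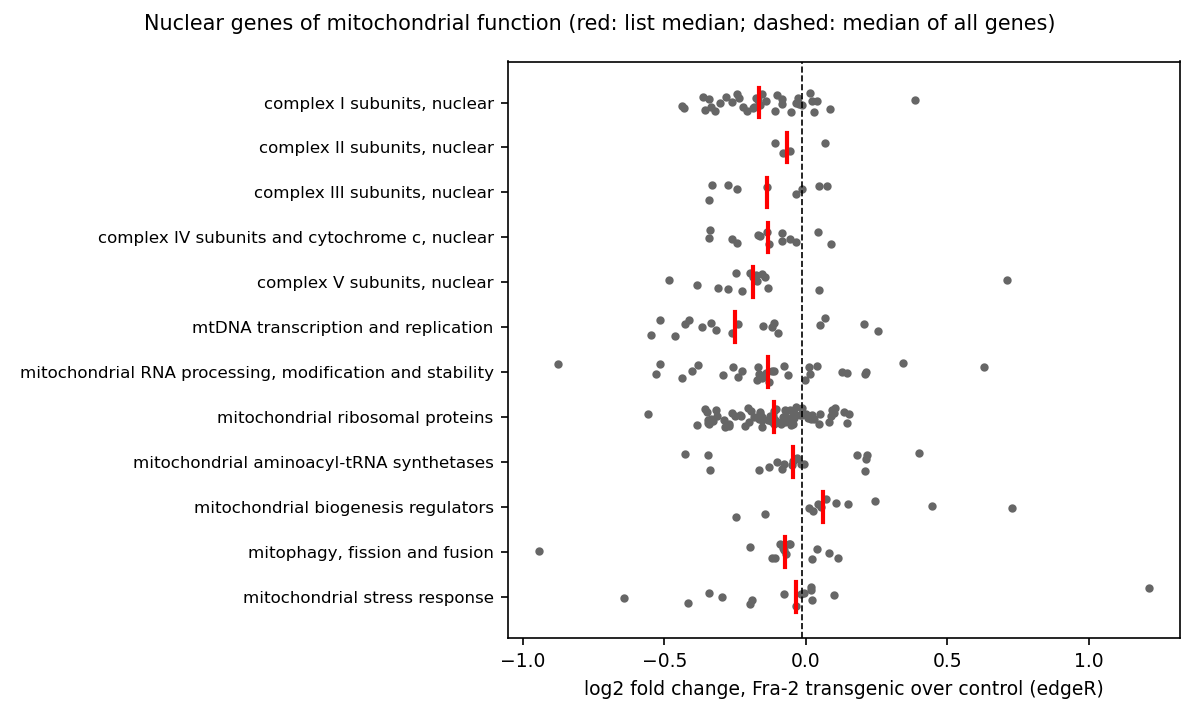
Log2 fold change (Fra-2 transgenic over control, edgeR) of nuclear genes in 12 lists of mitochondrial function, with 1 point per gene, the median of each list in red and the median of all genes tested as a dashed line. Medians of 11 lists lie below the dashed line and that of the biogenesis regulators above it, and no single gene passed the threshold.

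The machinery that reads mitochondrial DNA had the lowest list median, -0.25 over 18 tested genes of transcription and replication. Its most abundant member, Polg2, the accessory subunit of the DNA polymerase, measured 26.5 ± 10.5 CPM in Fra-2 transgenic and 36.5 ± 24.5 CPM in control libraries (edgeR adjusted p = 0.897). The packaging and initiation factor Tfam measured 12.3 ± 1.76 CPM in Fra-2 transgenic and 17.5 ± 2.93 CPM in control libraries (log2 fold change -0.51, edgeR adjusted p = 0.244), and the RNA polymerase Polrmt 6.00 ± 0.633 and 6.41 ± 1.64 CPM. Both were picked outside the rule, after their values were seen. Neither passed.

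Genes that process, modify or stabilise mitochondrial RNA had a median of -0.13 over 30. Grsf1, an RNA-binding protein of mitochondrial RNA granules and the most abundant member, measured 111 ± 7.82 CPM in Fra-2 transgenic and 110 ± 11.985 CPM in control libraries (edgeR adjusted p = 0.988). Lrpprc, which stabilises mitochondrial mRNAs and was picked after its values were seen, measured 54.2 ± 5.38 and 59.7 ± 7.78 CPM. The 75 mitochondrial ribosomal protein genes, whose products bind the 12S and 16S rRNAs, had a median of -0.11, with the most abundant, Mrpl39, at 47.0 ± 6.90 and 50.6 ± 7.82 CPM in Fra-2 transgenic and control libraries.

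The 19 aminoacyl-tRNA synthetase genes had a median of -0.04. Lars2, the leucyl-tRNA synthetase and most abundant of them, measured 72.3, 66.2, 192 and 117 CPM in Fra-2 1 to 4 and 76.9, 243, 133 and 112 CPM in control 1 to 4. Lars2 was highest in Fra-2 3 and control 2, the libraries with the most mitochondrial rRNA in each group. This was not particular to a synthetase gene. Gm42418, a gene outside the lists and picked after its values were seen, was also highest there, at 580 and 960 CPM. Why these libraries were high for both was not tested. The log2 fold change of Lars2 was -0.34 (edgeR adjusted p = 0.934).

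The regulators of mitochondrial biogenesis had a median of 0.06 over 12 genes, with the factor Gabpa at 285 ± 22.2 CPM in Fra-2 transgenic and 265 ± 38.9 CPM in control libraries. The median was -0.07 over 14 genes of mitophagy, fission and fusion, where Opa1, a fusion GTPase, measured 98.7 ± 3.46 and 95.9 ± 6.44 CPM. It was -0.03 over 15 genes of the mitochondrial stress response, where the transcription factor Atf4 measured 209 ± 15.1 and 210 ± 13.2 CPM in Fra-2 transgenic and control libraries. None of these genes passed (edgeR adjusted p of 0.901 for Gabpa, 0.959 for Opa1 and 0.994 for Atf4).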

How the data were processed

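Values are raw gene counts, as the authors deposited them, in 8 columns under mouse Ensembl identifiers. The only build in the submitters' processing notes is GRCh38, which is human. The sources used here name no aligner or counter and do not say how reads that match several places were treated. Symbols, coordinates and transcript sequences came from GENCODE M21 (GRCm38). Mitochondrial transcripts were aligned to nuclear ones with BLAST+ 2.17.0.

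Counts were analysed with edgeR 4.0.16 in R 4.3.3 (filterByExpr, minimum count 10 and minimum total 15, TMM scaling, robust quasi-likelihood F-test, two-sided, Benjamini-Hochberg over 15422 genes, threshold 0.05). The SE was derived from the fold change and F, and intervals are 95%. CPM use TMM-scaled library sizes, and shares use all counts. Sums over members got no test. The 8 columns were compared as 4 Fra-2 transgenic against 4 control libraries. Library totals are in the report, and counting error matters mainly for the tRNA genes and mt-Nd3.

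The members, the lists and the alternatives were chosen with earlier results of these data known. Named are all members, the most abundant member of each list when none passed, and Fosl2; 1 gene that this rule names is not reported here. DESeq2 1.42.0, limma-voom (limma 3.58.1), other scalings and filters, a replicate block, a sex term and leaving out each library were alternatives. On simulated counts for this comparison (15105 genes after filtering), 30% of 1.5-fold, 64% of 2-fold and 96% of 4-fold changes were recovered. Of the 154 calls, 10 were wrong. The changed genes were drawn at random and not chosen to resemble the mitochondrial genes.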

Additional observations from a re-analysis of the deposited data

Results flagged for a closer look

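Of 42 groups of 4 values examined, 3 held a library far from the other 3, and about 1 in 20 groups would by chance. mt-Rnr1 in control 2, at 22964 CPM, lay apart from the other controls by 0.833 of the range of its group. mt-Nd3 in control 4 measured 0.572 CPM, which rests on 19 reads. mt-Te, the glutamate tRNA gene, measured 0.954 CPM in Fra-2 4, which rests on 36 reads.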

How the results depend on the processing

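No mitochondrial gene and none of the listed nuclear genes passed under any of the 21 alternatives, where 0 of 331 values of the members were called. DESeq2 gave no adjusted p for mt-Tq, mt-Tm, mt-Nd3 and mt-Te, which count here as not called. The count over all genes, 157, became 369 in DESeq2 and ranged from 76 to 205 without 1 library (76 without Fra-2 1 or control 2, 81 without Fra-2 3, 90 without control 3). Of the 331 member values, 311 kept their direction and 20 did not. The looser threshold of 0.1 on the adjusted p reused the same fit, so its values could not change direction. The fit without robust dispersion returned the same fold changes as well. Apart from mt-Tc in DESeq2, every change of direction came from leaving out 1 library. The log2 fold change of mt-Tc was 0.00013 in DESeq2. Without 1 library it ranged from -0.24 to 0.22 for mt-Tc, -0.28 to 0.15 for mt-Nd5, -0.22 to 0.14 for mt-Nd6, -0.26 to 0.12 for mt-Cytb, -0.20 to 0.25 for mt-Co1, -0.34 to 0.031 for mt-Tl1 and -0.26 to 0.019 for mt-Tp. The log2 ratio of mt-Rnr2 to mt-Rnr1 differed by -0.05 between the groups, and by -0.14 to 0.0902 without 1 library. The cause of these changes was not tested.

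Replicate numbers do not pair the libraries by any label, and deviations of same-numbered libraries correlated by 0.00, 0.22, 0.08 and 0.31. With the replicate block 190 genes passed, again no member, and the difference of the log2 rRNA ratio was -0.05 (exact sign permutation p = 0.875). The ratios of mt-Atp6 to mt-Atp8 and of mt-Nd4 to mt-Nd4l were not run because mt-Atp6, mt-Atp8 and mt-Nd4l are at 0.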
